A study of Mus musculus with 8 samples.

Results

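The second exposure of R1 mouse embryonic stem cells to ML-792 was described by comparing 2 RNA sequencing libraries at D10 with 2 at D8, 4 of the 8 libraries measured. R1 is a line kept in serum with the cytokine LIF, and ML-792 is a small-molecule inhibitor of the SUMO-activating enzyme. The cells of all 4 libraries had been through a first 48 h exposure, from D1 to D3, which ended 5 days before D8. D8 cells were taken just before the second exposure and carry a control label, and D10 cells were taken after 48 h of it, at a dose labelled 2.5 mM. The labels name no D10 library without ML-792, so ML-792 and another 48 h in culture cannot be told apart. They also do not say whether the libraries of a group came from separate cultures, so each p-value measures only the spread between these libraries. All 8 libraries, with the D1 and D3 pairs, shared 1 estimate of that spread. Group memberships follow the titles, although the time tag of D1 replicate 2 gives day 0, and the molecule label names polyA RNA while the extraction text describes a total RNA kit.

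SUMO is a small protein that is joined to lysines of other proteins by an E1 enzyme (Sae1 with Uba2), an E2 enzyme and a set of ligases, and is taken off by SENP proteases. Its targets include many chromatin proteins, and in embryonic stem cells SUMO is known for its part in silencing retroviral elements, germline genes and the genes of the 2-cell embryo. Naive stem cells in LIF depend on STAT3 signalling, whereas FGF and ERK signalling moves them toward a formative or primed epiblast state.

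Reads in genes numbered 30527519 and 33036253 in the D8 libraries and 24281905 and 40835518 in the D10 libraries, and 21040992 in the smallest of all 8. D8 replicate 2 stood apart in composition. Its deviation from the mean of the libraries rose with GC content across 10353 coding genes (rho by Spearman of 0.663). The remaining 7 libraries ranged from -0.432, in D10 replicate 1, to 0.105. Over the same genes the log2 fold change from D8 to D10 itself fell with GC content (rho of -0.469). Called coding genes differed in GC content, with a median of 47.0% among those higher at D10, 54.8% among those lower and 50.4% among the rest, and the part of GC in the changes was not tested beyond the offsets reported with the alternatives.

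Of 19173 genes tested across the whole transcriptome, 3244 (16.9%) were called at an adjusted p under 0.05 in the quasi-likelihood test of edgeR. 1777 genes (9.27%) were higher at D10 and 1467 (7.65%) lower. In all 3244 called genes the D8 and D10 values did not overlap. The same held for 10522 of the 19173 tested genes (54.9%), so a remark on overlap adds nothing to a call. 947 genes rose and 214 fell by at least 4-fold, and 312 rose and 10 fell by at least 16-fold. The median log2 fold change was 2.10 among genes that rose and -1.06 among those that fell, against 0.0312 over all tested genes. With the 79 risen genes that had 0 reads at D8 placed at a lower bound of 3 reads, the median rise was 2.09. The split depended on the libraries: 54.8% of calls were rises with all libraries, and without D10 replicate 1 the counts were 1016 higher and 404 lower, or 71.5%. Without D8 replicate 2 they were 991 and 827, and without D10 replicate 2 they were 1024 and 1008.

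The genes for the enzyme that ML-792 acts on, Uba2 and Sae1, did not pass the test. Uba2 stood at 609.7 and 634 CPM at D8 and 613 and 653 CPM at D10 (CPM, a gene's reads relative to the library's total, scaled by TMM), and Sae1 at 359 and 463 at D8 against 372 and 412 at D10. The D8 and D10 values overlapped in both genes, with log2 fold changes of 0.03 ± 0.13 and -0.07 ± 0.15 (SE; edgeR adjusted p = 0.91 and 0.8). None of 17 tested genes for SUMO proteins, E1, E2 and ligases passed the test in either direction, and their median log2 fold change was 0.03. Without D8 replicate 1, 1 of them passed in each direction. Among 15 genes listed under SUMO removal and SUMO-targeted ubiquitin ligases 3 were higher at D10 (20%, against 9.27% of all genes). 1 of the 3, Sp110, encodes neither a SUMO protease nor such a ligase, and it also stands in the list of 2-cell genes described below. Senp7, a protease that trims SUMO chains, rose from 3.30 and 3.93 CPM at D8 to 13.8 and 10.0 CPM at D10 (1.72 ± 0.27, adjusted p = 0.0052), with no overlap. The other 2 were Sp110 and Desi2, and the count of 3 was 1 without D10 replicate 2 and 5 without D8 replicate 1. The libraries were also checked for other cell types. Of 10 stem cell markers 8 were lower at D10 and 0 higher, with a summed level of 6371 and 6910 CPM at D8 and 3285 and 3839 CPM at D10. Of the other lists, 1 of 10 fibroblast, 1 of 8 primitive endoderm and 1 of 6 neural markers were lower, 1 of 6 mesoderm markers was higher, and 0 of 7 trophoblast and 5 matched blood markers were called. Summed levels of the fibroblast markers were 34.4 and 47.2 CPM at D8 with 35.1 and 50.6 CPM at D10. Pdgfra made up most of that sum and is also a marker of primitive endoderm, whereas Col3a1, Dcn, Lum and Postn each had at most 0.202 CPM in the 4 libraries. Summed levels of primitive endoderm markers were 513 and 747 CPM before and 417 and 605 CPM after the exposure. Those of trophoblast markers were 39.1 and 62.5 before and 21.1 and 36.1 after it, and those of mesoderm markers 2.65 and 4.18 before and 6.11 and 5.87 after it. The part of such cells in the results was not tested.

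Direction went with the level before the exposure. Below 0.1 CPM at D8, 440 of 676 tested genes rose and 0 fell. Between 0.1 and 1 CPM 523 of 4383 rose and 62 fell, and between 1 and 10 CPM the counts were 398 and 358 of 4645. From 10 to 100 CPM 361 of 7096 genes rose and 798 fell, and above 100 CPM 55 of 2373 rose and 249 fell. A gene near 0 at D8 entered the test only through its reads in other groups and could hardly fall, so the lowest class describes the filter as well as the cells. The classes rest on the D8 values that also enter the fold change. Spread in D8 can by itself tilt the counts this way in every class, and falls are harder to call at low counts. The part of either was not tested. Biotypes differed too. Among 14693 coding genes 1355 rose and 1385 fell, whereas 45 of 118 unprocessed pseudogenes rose and 3 fell, and 127 of 702 lincRNA genes rose and 32 fell. Many of the pseudogenes are copies of multigene families, and the rule for reads that match several places is not given in the sources used here, so reads of single copies are uncertain.

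**Figure D1:**
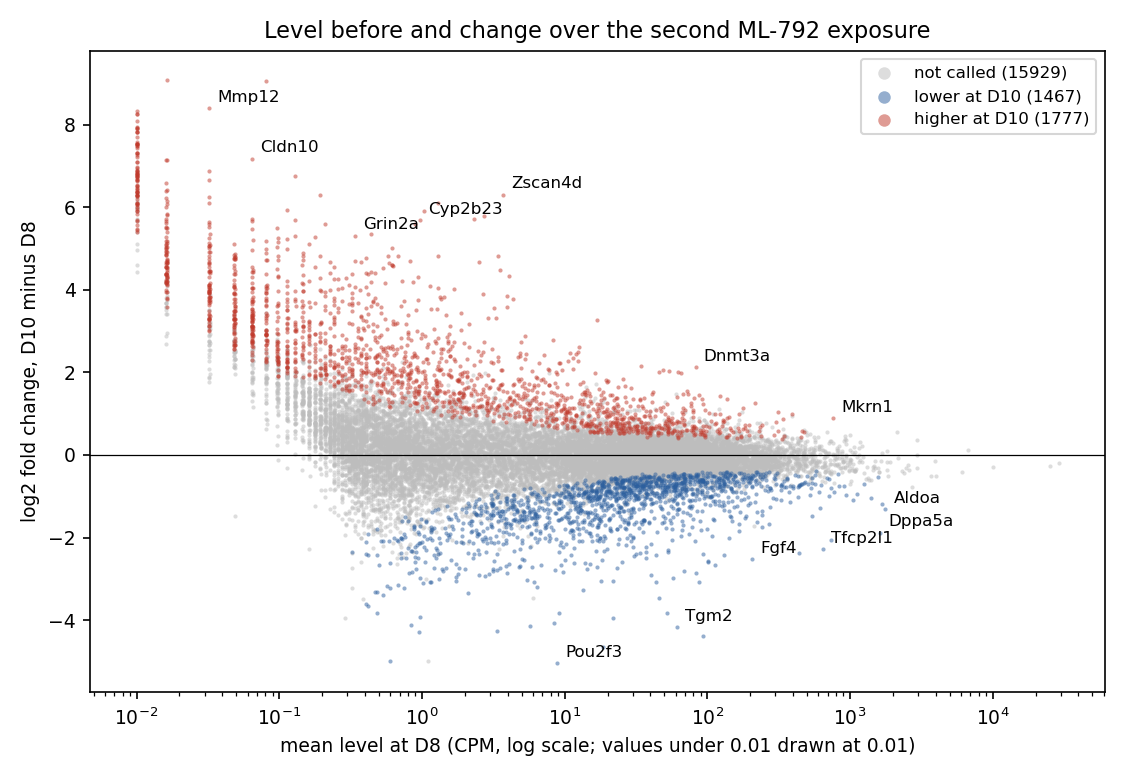
Log2 fold change of each of the 19173 tested genes from D8 to D10 (y axis) against its mean level at D8 in CPM (x axis, log scale). Red points are the 1777 genes called higher and blue points the 1467 called lower: the red points reach highest at the left, below 1 CPM, and the blue points lie mostly above 10 CPM.

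285 genes with at most 3 reads over both D8 libraries were called higher, among them 136 coding genes and 63 pseudogenes. Their median level at D10 was 0.551 CPM. 389 such genes had entered the test. At the high end stood Mmp12, which encodes macrophage elastase (ENSMUSG00000049723, chromosome 9, 7344381 to 7369499 on mm10). It had 2 reads at D8 and 723 at D10, or 0 and 0.0644 CPM at D8 and 18.4 and 6.37 CPM at D10. Pooled over libraries this is a ratio of 334 (95% exact interval of 92.1 to 2762, counting error only), and the fitted log2 fold change was 8.39 ± 1.21 (adjusted p = 0.0036). Guca1b, for a guanylate cyclase activator of photoreceptors, went from 2 reads to 189 and Gbp8, for a guanylate-binding protein, from 2 reads to 117. Ratios for these genes were 87.3 (23.8 to 726) and 54.0 (14.6 to 451). In the opposite direction 16 tested genes had at most 3 reads over both D10 libraries, and 9 were called lower. Among them was Nxnl1, named for its likeness to thioredoxin, at 1.01 and 0.901 CPM at D8 and 0.0405 and 0.0475 CPM at D10 (-4.29 ± 0.56, adjusted p = 0.0026).

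The 14 largest rises were taken among called coding genes with a mean of at least 2 CPM and no predicted name. At most 2 genes of 1 name stem were kept, so further Zscan4 genes were left out. The D8 and D10 values were also required not to overlap. These 14 included Zscan4d, Zscan4f and Tcstv3 of the 2-cell embryo beside genes known from adult tissues. Cldn10 encodes a claudin of epithelial tight junctions (ENSMUSG00000022132, chromosome 14, 118787908 to 118875489), and its level was 0.0327 and 0.0965 CPM at D8 and 8.51 and 11.5 CPM at D10. Both D10 libraries lay far above both D8 libraries, a log2 fold change of 7.18 ± 0.69 (adjusted p = 0.00099). Akr1c21, for a steroid-converting aldo-keto reductase, stood at 0.0327 and 0.0322 at D8 against 3.93 and 4.71 at D10. From 2 reads at D8 and 295 at D10 its ratio was 136 (37.4 to 1130). Cyp2b23, for a cytochrome P450 of the drug-metabolizing kind (ENSMUSG00000040650, chromosome 7, 26665227 to 26686437), was at 1.05 and 0.901 CPM at D8 and 62.4 and 38.9 CPM at D10 (5.69 ± 0.43, adjusted p = 0.00051). The glutamate receptor gene Grin2a was at 0.327 and 0.354 CPM at D8 and 18.6 and 8.91 CPM at D10 (5.31 ± 0.54). In both genes D10 replicate 1 held the higher value, and both D10 values stood clear of D8. The protocadherin gene Pcdh8 was at 0.0981 and 0.161 at D8 against 6.08 and 7.68 at D10 (5.69 ± 0.46, adjusted p = 0.00066). Slco2b1, for an organic anion transporter, was uneven at D10, at 0.131 and 0.225 at D8 against 2.07 and 12.0 at D10 (5.28 ± 0.88, adjusted p = 0.0063). The other 8 were Mmp12, Zscan4d, Zscan4f, Nat8f2, Spz1, Tcstv3, Nell1 and Steap4, with log2 fold changes between 4.82 for Steap4 and 8.39 for Mmp12. All 14 passed when any one of the 8 libraries was left out.

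The largest falls followed the same rule, and 13 of the 14 are described. Tgm2, for tissue transglutaminase (ENSMUSG00000037820, chromosome 2, 158116402 to 158146436), was at 50.7 and 71.5 CPM at D8 and 2.35 and 4.33 CPM at D10 (-4.16 ± 0.40, adjusted p = 0.00099). The transcription factor gene Pou2f3 (ENSMUSG00000032015, chromosome 9, 43123939 to 43210369) showed the largest fall, from 10.99 and 6.76 CPM at D8 to 0.203 and 0.309 CPM at D10 (-5.04 ± 0.49, adjusted p = 0.00099). No value at D10 came near one at D8. Grin1, for the subunit that every NMDA receptor holds, was at 6.31 and 10.7 at D8 against 0.203 and 0.737 at D10 (-4.06 ± 0.53, adjusted p = 0.0026), opposite in direction to Grin2a. The keratin gene Krt17 was at 15.7 and 28.2 at D8 against 0.486 and 2.21 at D10 (-3.94 ± 0.54). Both D8 values exceeded both D10 values in each gene, which the rule required. Lrrc34, Lrriq4 and Lrrc31, genes for leucine-rich repeat proteins, lie in a row on chromosome 3 between 30624267 and 30699843 on mm10. Lrrc34 was at 63.2 and 41.4 CPM at D8 and 3.20 and 4.11 CPM at D10 (-3.83 ± 0.28). Lrriq4 was at 8.996 and 9.17 at D8 against 0.486 and 0.761 at D10 (-3.82 ± 0.35). Lrrc31 was at 20.9 and 16.2 at D8 against 0.284 and 1.09 at D10 (-4.64 ± 0.58). Lrrc34 and Lrriq4 overlap on opposite strands, so their reads can be told apart only by strand, and the counting rule for strand is not given in the sources used here. Their tested neighbour Mynn, named after its value was seen, had a log2 fold change of -0.07 ± 0.17 (adjusted p = 0.82). The others were Nkx6-3, Xaf1, Slc52a3, Atp6v0a4, Capn5 and Calb2, from -4.13 for Nkx6-3 to -3.08 for Calb2. These 13 falls likewise passed without any one library.

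**Figure D2:**
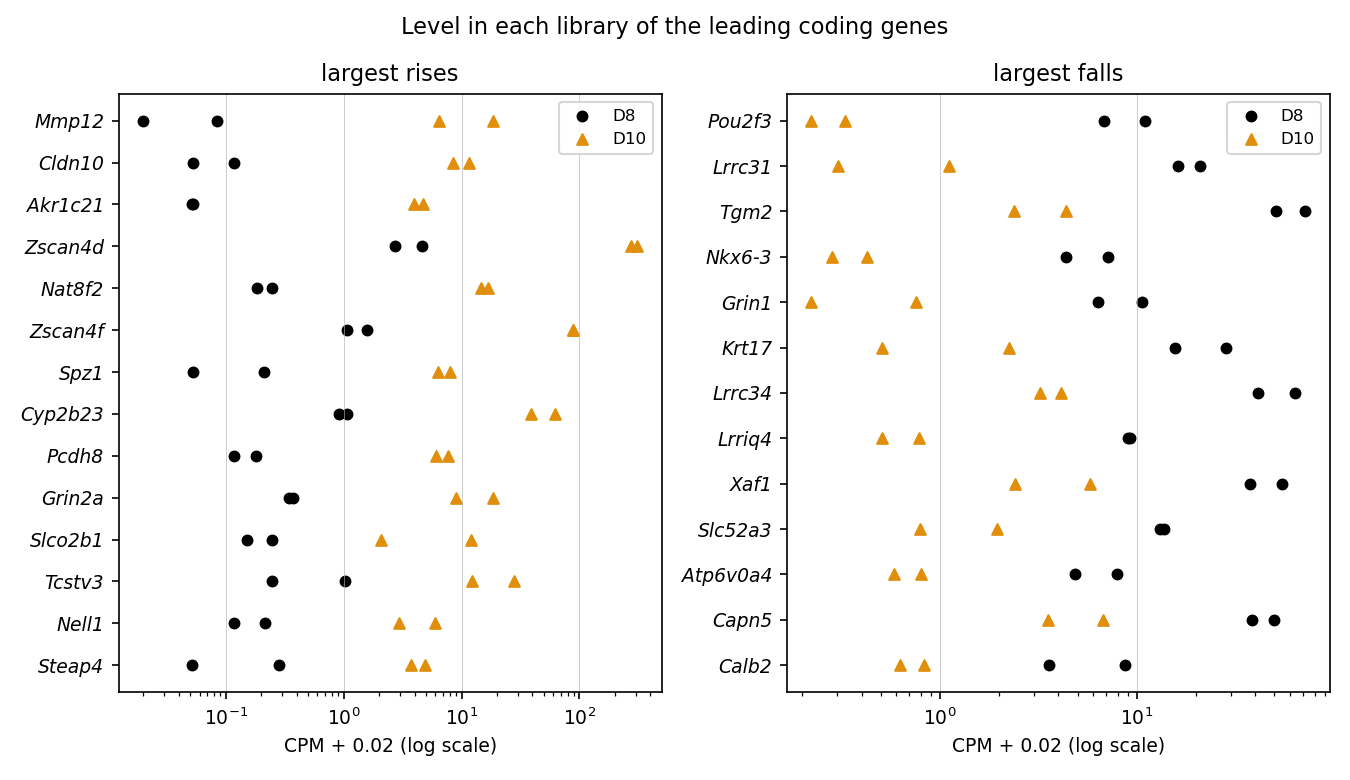
Level in each library of the 14 coding genes with the largest rise (left) and 13 of the 14 with the largest fall (right), as CPM plus 0.02 on a log scale. Black circles are the 2 libraries at D8 and orange triangles the 2 at D10. Only genes whose pairs do not overlap could be chosen, so the gap is part of the choice.

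Ranked by gain or loss in mean CPM, which counts reads and not molecules, other genes led. Mkrn1, for a ubiquitin ligase that binds RNA, stood at 742 and 782 CPM at D8 and 1467 and 1359 CPM at D10 (0.89 ± 0.12, adjusted p = 0.0028). Dnmt3a, for a DNA methyltransferase that sets methylation anew (ENSMUSG00000020661, chromosome 12, 3806007 to 3914443), was at 79.3 and 86.3 CPM at D8 and 395 and 326 CPM at D10 (2.12 ± 0.14, adjusted p = 0.00038). The p53 target Ccng1 and the giant cadherin gene Fat1 gained by 1.0 ± 0.14 and 0.87 ± 0.14 on the log2 scale. Among losses Dppa5a, a stem cell gene for an RNA-binding protein, went from 1369 and 1886 CPM at D8 to 358 and 526 CPM at D10 (-1.88 ± 0.23, adjusted p = 0.0022). Parp1, for the poly(ADP-ribose) polymerase of DNA repair, was at 1272 and 1543 CPM at D8 and 671 and 695 CPM at D10 (-1.04 ± 0.14, adjusted p = 0.003). Groups did not overlap in any of these genes, as in every called gene.

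Genes of the 2-cell embryo form the list with the highest share of calls. 23 of its 24 tested members rose and 0 fell, against 9.27% of all tested genes, with a median log2 fold change of 4.17, and between 20 and 23 rose without any one library. Zscan4d, which marks the brief 2-cell-like state of stem cell cultures (ENSMUSG00000090714, chromosome 7, 11161374 to 11166159), was at 2.72 and 4.63 CPM at D8 and 308 and 274 CPM at D10 (6.30 ± 0.70, adjusted p = 0.0016). Duxf3, for the factor that switches such genes on, was at 0.0981 and 0.0965 at D8 against 2.23 and 3.47 at D10 (4.82 ± 0.58). Arg2, the mitochondrial arginase gene, was at 0.327 and 0.837 at D8 against 11.4 and 21.6 at D10 (4.82 ± 0.54, adjusted p = 0.0016). Every D10 value of these genes exceeded every D8 value. Some members, such as Duxf3, stood near 0 at D8, where a gene could hardly fall. Of all tested genes below 0.1 CPM at D8, 65.1% rose and 0 fell, so 9.27% is a low mark for such members. Summed over 10 markers of this state the level was 7.72 and 15.1 CPM at D8 and 605 and 628 CPM at D10. In bulk RNA, more cells of a type and more RNA per cell cannot be told apart. Several of these genes belong to near-identical families (Zscan4, Usp17l, Tcstv), so single members are uncertain, and Duxf3 and Arg2 were named after their values were seen. Eif1a, the member that did not pass, stood at 295 and 219.8 at D8 against 285 and 249 at D10.

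**Figure D3:**
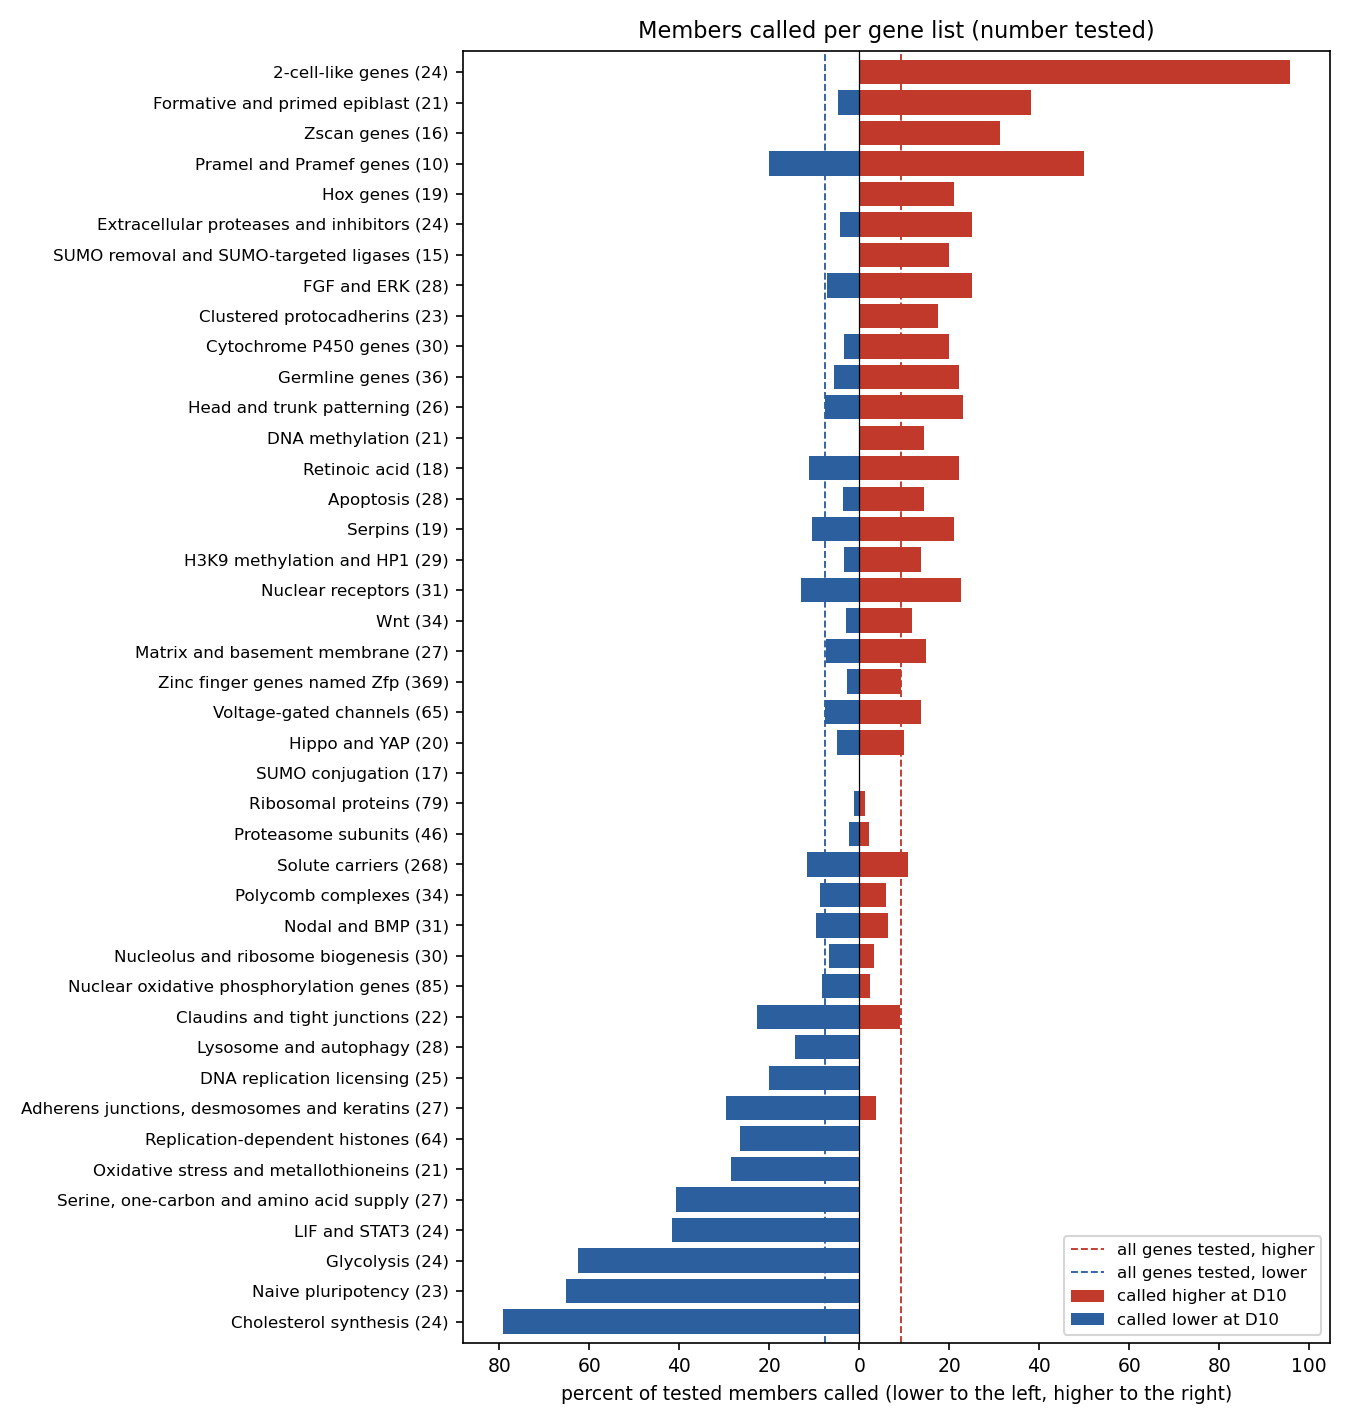
Percent of tested members called lower (blue, to the left) and higher (red, to the right) at D10 in each gene list, with the number tested in parentheses. Dashed lines give the same share over all 19173 genes, 7.65% lower and 9.27% higher: the 2-cell-like list reaches furthest to the right, and cholesterol synthesis, naive pluripotency and glycolysis furthest to the left.

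LIF keeps naive cells in place through the receptor subunits Lifr and Il6st, JAK kinases and STAT3, whose targets include Tfcp2l1, Klf4 and Socs3. 10 of 24 tested genes of this pathway fell and 0 rose, against 7.65% of all genes lower, with a median log2 fold change of -0.66. Genes for the LIF receptor subunits, Jak1 and Stat3 missed the threshold. Il6st was at 127 and 116 CPM at D8 and 112 and 100.5 CPM at D10 (-0.20 ± 0.15), and Jak1 at 73.9 and 79.4 at D8 against 54.0 and 70.8 at D10 (-0.30 ± 0.21). Stat3 was at 130.0 and 146 at D8 against 106 and 107 at D10 (-0.37 ± 0.13, adjusted p = 0.085, but adjusted p = 0.045 with D8 replicate 1 left out). Lifr was at 228 and 127 at D8 against 123 and 91.9 at D10 (-0.72 ± 0.25, adjusted p = 0.084, and adjusted p = 0.0082 with D8 replicate 2 left out). Tfcp2l1, for a transcription factor that sustains naive cells (ENSMUSG00000026380, chromosome 1, 118627945 to 118685168), went from 677 and 613 CPM at D8 to 128 and 139 CPM at D10. The pairs were tight and far apart (-2.27 ± 0.14, adjusted p = 0.00038). The cyclin gene Ccnd3 was at 209 and 276 at D8 against 63.3 and 81.3 at D10 (-1.75 ± 0.18, adjusted p = 0.0012), and the feedback inhibitor gene Socs2 at 88.3 and 62.4 at D8 against 27.5 and 27.4 at D10 (-1.46 ± 0.24). Klf4 was at 185 and 152 at D8 against 58.0 and 71.0 at D10 (-1.38 ± 0.16, adjusted p = 0.0017). The kinase gene Pim3 fell by 1.02 ± 0.17 on the log2 scale. These 5 passed without any one library, whereas the list count was 6 without D10 replicate 1. Stat3, Il6st, Jak1, Klf4 and Pim3 were named after their values were seen.

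Of naive pluripotency genes, 15 of 23 tested members fell (65.2%, against 7.65% of all genes) and 0 rose, with a median of -1.0. 3 of the falls (Klf4, Klf5 and Tfcp2l1, the first pair named after their values were seen) also stand in the LIF list. Between 12 and 15 fell without any one library. Fgf4, for a growth factor that stem cells secrete (ENSMUSG00000050917, chromosome 7, 144847367 to 144865243), was at 203 and 208 CPM at D8 and 31.3 and 40.1 CPM at D10 (-2.52 ± 0.17, adjusted p = 0.00042). Tcl1, for a co-activator of AKT, was at 89.9 and 113 at D8 against 13.0 and 20.9 at D10 (-2.58 ± 0.27), and Prdm14, for a repressor that guards the naive state, at 37.9 and 36.9 at D8 against 5.23 and 10.7 at D10 (-2.22 ± 0.29, adjusted p = 0.0025). Every D8 value of these genes was at least 3 times every D10 value. Klf2 was at 86.2 and 111 at D8 against 21.2 and 35.7 at D10 (-1.79 ± 0.26) and Esrrb at 572 and 657 at D8 against 236 and 273 at D10 (-1.27 ± 0.14, adjusted p = 0.0016), and both were named after their values were seen. Of the core factors, Nanog was at 517 and 536 at D8 against 194 and 347 at D10 (-0.96 ± 0.24, adjusted p = 0.027, but adjusted p = 0.057 with D8 replicate 2 left out and 0.082 with D10 replicate 1 left out). Pou5f1 was at 1199 and 1321 at D8 against 796 and 758 at D10 (-0.70 ± 0.15, adjusted p = 0.018, but adjusted p = 0.071 with D10 replicate 1 left out and 0.068 with D10 replicate 2 left out). Sox2 did not pass, at 369 and 381 at D8 against 389 and 363 at D10 (0.00 ± 0.16). Of 21 genes for the formative and primed epiblast 8 rose (38.1%) and 1 fell (4.76%), against 9.27% and 7.65% of all genes. Their median was 0.45 (0.84 without D10 replicate 1, 0.78 with offsets for GC and length). Zic2, for a zinc finger factor of the epiblast, was at 4.97 and 4.79 at D8 against 29.5 and 24.9 at D10 (2.47 ± 0.22, adjusted p = 0.00082) and the neural factor gene Sox11 at 26.7 and 17.5 at D8 against 62.6 and 49.2 at D10 (1.34 ± 0.23). Otx2, which marks the formative state, did not pass, at 21.3 and 31.7 at D8 against 13.5 and 9.27 at D10 (-1.22 ± 0.37, adjusted p = 0.052, and adjusted p = 0.038 with D3 replicate 1 left out, 0.038 with D3 replicate 2 left out and 0.032 with D8 replicate 1 left out). Its values at D10 lay below those at D8, and Otx2, Sox11 and Utf1 were named after their values were seen. The single fall, Utf1, was lost without D8 replicate 2, D10 replicate 1 or D10 replicate 2. The count of falls was 0 without D8 replicate 2 or D10 replicate 1, 2 without either D3 library and 3 without D8 replicate 1.

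FGF signalling runs from ligands through receptors to ERK, whose target genes feed back on it. 7 of 28 tested genes of this pathway rose (25%) and 2 fell (7.14%), against 9.27% and 7.65% of all genes. Both falls were ligands, Fgf4 and Fgf17. Fgf17 was lost without D8 replicate 2 or D10 replicate 1. The receptor gene Fgfr2 was at 6.02 and 7.66 CPM at D8 and 14.3 and 18.3 CPM at D10 (1.26 ± 0.23, adjusted p = 0.0083). ERK feedback genes Spry2 and Spry4 were at 74.8 and 78.7 CPM at D8 and 182 and 167 CPM at D10 and at 125 and 149 CPM at D8 and 253 and 256 CPM at D10. The pairs were well apart in both (1.18 ± 0.12 and 0.89 ± 0.14, adjusted p = 0.0013 and 0.0046). Dusp5, for a phosphatase of ERK, was at 12.1 and 13.6 at D8 against 45.8 and 38.9 at D10 (1.71 ± 0.16). The ETS factor gene Etv1 was at 14.6 and 9.46 at D8 against 82.7 and 48.0 at D10 (2.44 ± 0.29, adjusted p = 0.0019) and the AP-1 gene Fosl1 at 0.687 and 0.644 at D8 against 5.15 and 2.80 at D10 (2.56 ± 0.44). Etv5, a relative of Etv1 and also an ERK target, did not pass, at 181 and 239.9 at D8 against 157 and 184 at D10 (-0.30 ± 0.19). Fgf17, Fgfr2, Spry2 and Spry4 were named after their values were seen, and 7 of the calls in this pathway passed without any one library.

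In other signalling pathways single genes are described. Among Wnt, Nodal and BMP, and Hippo genes 6.45% to 11.8% rose and 2.94% to 9.68% fell, against 9.27% and 7.65% of all genes. Larger shares rose among retinoic acid genes (22.2%) and head and trunk patterning genes (23.1%). Of 34 Wnt genes 4 rose (11.8%) and 1 fell. Wnt8a, for a ligand of the primitive streak, was at 0.229 and 0.483 CPM at D8 and 3.65 and 5.61 CPM at D10 (3.69 ± 0.44, adjusted p = 0.002), and the number that rose was 1 with D10 replicate 1 left out and 2 with D1 replicate 1, D3 replicate 1, D3 replicate 2, D8 replicate 2 or D10 replicate 2 left out and the number that fell was 0 with D1 replicate 1, D1 replicate 2 or D10 replicate 2 left out and 3 with D8 replicate 1 left out. Of 31 Nodal and BMP genes 2 rose (6.45%) and 3 fell (9.68%). Inhbb, for the beta B chain of inhibins and activins, was at 101.1 and 85.7 at D8 against 18.0 and 17.5 at D10 (-2.40 ± 0.23, adjusted p = 0.001), and the number that rose was 1 with D10 replicate 2 left out and 6 with D8 replicate 1 left out and the number that fell was 1 with D10 replicate 1 left out, 5 with D8 replicate 1 left out and 6 with D10 replicate 2 left out. Among 18 retinoic acid genes 4 rose (22.2%) and 2 fell (11.1%). Aldh1a3, which makes retinoic acid, was at 0.589 and 0.450 CPM at D8 and 6.65 and 5.87 CPM at D10 (3.58 ± 0.35, adjusted p = 0.00099), and the receptor gene Rarg at 69.1 and 66.0 at D8 against 200.3 and 179 at D10 (1.49 ± 0.13, adjusted p = 0.00082). Both pairs were clear of each other. Rara, for another receptor, did not pass, at 61.6 and 65.2 at D8 against 57.8 and 46.0 at D10 (-0.29 ± 0.16). For the retinoid list the number that rose was 2 with D1 replicate 1, D1 replicate 2, D10 replicate 1 or D10 replicate 2 left out and the number that fell was 0 with D10 replicate 1 left out and 1 with D8 replicate 2 left out. In the Hippo pathway Tead4, for a DNA-binding partner of YAP, fell from 56.8 and 49.8 CPM at D8 to 10.3 and 10.6 CPM at D10 (-2.35 ± 0.20, adjusted p = 0.00082), while Yap1 itself was at 185 and 168 at D8 against 197 and 195 at D10 (0.15 ± 0.12). Of 26 head and trunk patterning genes 6 rose and 2 fell, and the number that rose was 3 with D10 replicate 1 left out and the number that fell was 1 with D8 replicate 2 or D10 replicate 2 left out. The engrailed genes of the midbrain border rose together, En1 at 0.425 and 0.547 at D8 against 3.12 and 1.57 at D10 (2.24 ± 0.42, adjusted p = 0.0099) and En2, named after its values were seen, at 3.70 and 6.76 at D8 against 15.5 and 19.6 at D10 (1.75 ± 0.31, adjusted p = 0.0083).

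Epithelial junction genes were called in both directions. Of 22 claudin and tight junction genes 2 rose (9.09%) and 5 fell (22.7%), against 9.27% and 7.65% of all genes. Against the rise of Cldn10 stood Cldn4, at 48.3 and 90.0 CPM at D8 and 5.07 and 14.4 CPM at D10 (-2.81 ± 0.50, adjusted p = 0.0079), and Cldn7, at 8.31 and 20.4 at D8 against 1.42 and 2.73 at D10 (-2.76 ± 0.48, adjusted p = 0.0072). Tjp3, for a scaffold that ties claudins to actin, was at 23.6 and 37.5 at D8 against 4.26 and 6.84 at D10 (-2.45 ± 0.31, adjusted p = 0.0023). These falls had wide pairs at D8, yet every D8 value exceeded every D10 value. Marveld3, for a membrane protein of the same junctions, fell by 1.76 ± 0.28. Cldn11 was the other rise, with 2 reads at D8, and was lost without D8 replicate 2 or D10 replicate 2. 8 of 27 adherens junction, desmosome and keratin genes fell (29.6%) and 1 rose (3.7%). Jup, for plakoglobin of both junction types, was at 111 and 181 at D8 against 43.0 and 60.2 at D10 (-1.50 ± 0.24, adjusted p = 0.0057). Cdh1, for E-cadherin, was at 329 and 329 at D8 against 188 and 200.2 at D10 (-0.76 ± 0.14, adjusted p = 0.0098, but adjusted p = 0.064 with D10 replicate 1 left out), and Cdh2, for N-cadherin, at 2.00 and 1.90 at D8 against 4.66 and 6.39 at D10 (1.51 ± 0.30, adjusted p = 0.012, but adjusted p = 0.056 with D8 replicate 2 left out and 0.064 with D10 replicate 2 left out). For this list the number that rose was 0 with D8 replicate 2 or D10 replicate 2 left out and 3 with D8 replicate 1 left out and the number that fell was 1 with D10 replicate 1 left out, 3 with D8 replicate 2 left out and 5 with D3 replicate 1 or D3 replicate 2 left out. Tjp3, Marveld3 and Cdh1 were named after their values were seen.

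Outside the cell, 6 of 24 protease and inhibitor genes rose and 1 fell, where the number that fell was 0 with D8 replicate 2 or D10 replicate 1 left out and 2 with D10 replicate 2 left out and the rises were 3 with only the D8 and D10 libraries. With all 8 libraries 25% of this list rose and 4.17% fell, against 9.27% and 7.65% of all genes. 3 of the 6 rises, Mmp12, Mmp1b and Mmp3, are matrix metalloproteinases of 1 cluster on chromosome 9. Mmp1b had 0 reads at D8 and 75 at D10 (1.34 and 0.998 CPM), at least 23.1-fold higher against a floor of 3 reads over the group. Mmp3 had 0 and 17 reads, at least 5.23-fold higher, and missed the threshold without any one of the 8 libraries. Of 27 matrix genes 4 rose (14.8%) and 2 fell (7.41%, near the 7.65% of all genes). Nid1, which links laminin to collagen in basement membranes, was at 92.5 and 86.4 CPM at D8 and 23.9 and 34.6 CPM at D10 (-1.61 ± 0.21, adjusted p = 0.0027), and Lama2, for a laminin of muscle, at 0.229 and 0.193 at D8 against 1.09 and 0.927 at D10 (2.23 ± 0.40, adjusted p = 0.0083). Neither pair overlapped. For this list the number that rose was 1 with D10 replicate 2 left out and 2 with D8 replicate 2 left out and the number that fell was 1 with D10 replicate 1 left out and 4 with D8 replicate 1 left out.

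Cholesterol synthesis held the largest share of falls among the lists. The pathway runs from acetyl-CoA through mevalonate and squalene to cholesterol, and SREBP2 drives its genes when sterols are low. 19 of 24 tested members fell and 0 rose, against 7.65% of all genes lower, and all 24 fold changes were below zero, with a median log2 of -0.89. Insig1, for the sensor that holds SREBP back, was at 117 and 147 CPM at D8 and 43.4 and 60.8 CPM at D10 (-1.34 ± 0.21, adjusted p = 0.0052), and Pmvk, for phosphomevalonate kinase, at 62.7 and 92.2 at D8 against 27.8 and 35.2 at D10 (-1.30 ± 0.20, adjusted p = 0.0052). In each gene both D8 values lay above both D10 values. Further down the pathway Fdft1, for squalene synthase, was at 128 and 197 at D8 against 67.1 and 71.3 at D10 (-1.23 ± 0.21), Lss, for lanosterol synthase, at 92.5 and 128 at D8 against 50.5 and 52.1 at D10 (-1.10 ± 0.18) and Msmo1, for a sterol oxidase, at 179 and 218 at D8 against 94.7 and 84.1 at D10 (-1.15 ± 0.15, adjusted p = 0.0027). Srebf2, for SREBP2 itself, was at 105 and 141 at D8 against 67.4 and 75.7 at D10 (-0.78 ± 0.18, adjusted p = 0.021, but adjusted p = 0.067 with D8 replicate 2 left out and 0.12 with D10 replicate 1 left out). Sqle did not pass, at 96.2 and 127 at D8 against 79.9 and 80.3 at D10 (-0.48 ± 0.15, adjusted p = 0.062, but adjusted p = 0.012 with D8 replicate 1 left out). The count of 19 was 7 without D10 replicate 1 and 10 without D8 replicate 2. It was 8 when only the D8 and D10 libraries were fitted, and 21 with offsets for GC and length. Fdft1, Lss, Msmo1 and Srebf2 were named after their values were seen.

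Of glycolysis genes, 15 of 24 fell (62.5%, against 7.65% of all genes) and 0 rose, with a median of -0.79 (-0.42 without D8 replicate 2). Hk1, for the hexokinase that starts the pathway, was at 82.1 and 134 CPM at D8 and 23.3 and 31.9 CPM at D10 (-1.97 ± 0.26, adjusted p = 0.0027), and Pfkp, for a phosphofructokinase named after its values were seen, at 271 and 292 at D8 against 141 and 173 at D10 (-0.84 ± 0.14, adjusted p = 0.0061). Pairs did not overlap in either gene. Aldoa, for aldolase, was at 1216 and 2323 at D8 against 542 and 883 at D10 (-1.31 ± 0.32, adjusted p = 0.026, but adjusted p = 0.085 with D8 replicate 2 left out and 0.13 with D10 replicate 1 left out). Ldha, for lactate dehydrogenase, was at 750.2 and 1348 at D8 against 419 and 570.1 at D10 (-1.08 ± 0.27, adjusted p = 0.027, but adjusted p = 0.073 with D8 replicate 2 left out and 0.15 with D10 replicate 1 left out). In Aldoa, Ldha, Hk1 and Aldoc, D8 replicate 2, the library apart in GC content, held the highest of the 4 values. The glucose transporter gene Slc2a3 was at 1398 and 1968 at D8 against 604 and 872 at D10 (-1.19 ± 0.23, adjusted p = 0.011, but adjusted p = 0.061 with D10 replicate 1 left out), while Slc2a1, for the other main transporter and named after its values were seen, was at 250 and 400.3 at D8 against 274 and 539 at D10 (0.32 ± 0.34, adjusted p = 0.56). The count of 15 falls was 3 without D10 replicate 1, 4 without D8 replicate 2 and 9 without D1 replicate 2, D3 replicate 1, D3 replicate 2 or D10 replicate 2, and 1 gene rose without D8 replicate 2. With only the D8 and D10 libraries 5 fell, and with offsets for GC and length 13 fell and 1 rose.

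**Figure D4:**
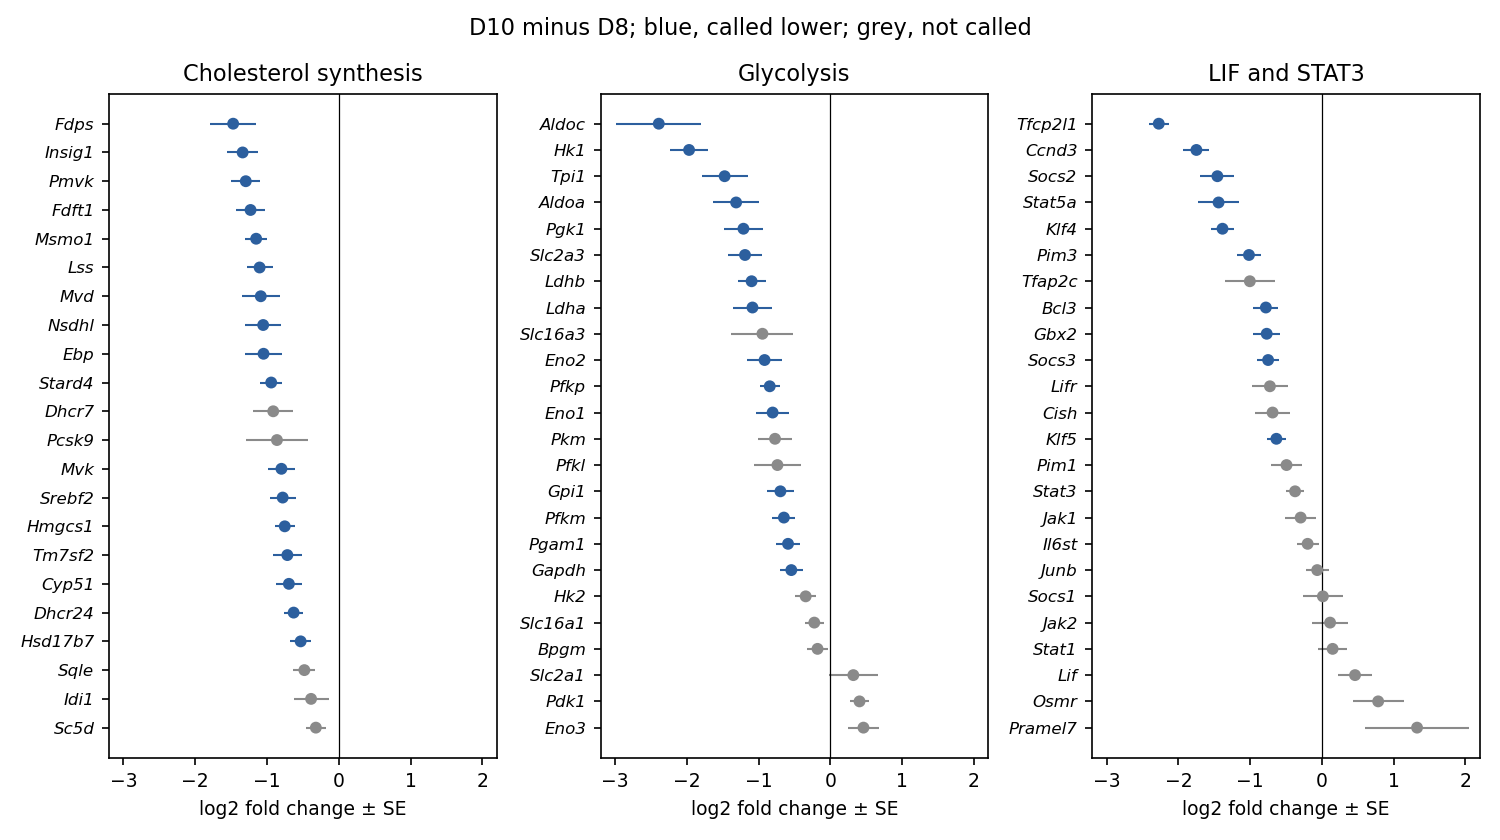
Log2 fold change from D8 to D10 with its SE for 22 of the 24 tested genes of cholesterol synthesis and every tested gene of glycolysis and of LIF and STAT3 signalling. Blue points were called lower and grey points were not called: all 22 cholesterol points lie left of zero, while 3 glycolysis and 6 LIF points lie right of it.

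Of genes for amino acid supply, 11 of 27 tested genes fell (40.7%, against 7.65% of all genes) and 0 rose, with a median of -0.41. Tdh, for the threonine dehydrogenase that mouse stem cells rely on (ENSMUSG00000021953, chromosome 14, 63492347 to 63509092), went from 621 and 848 CPM at D8 to 187 and 168 CPM at D10 (-2.05 ± 0.21, adjusted p = 0.0011). Ass1, for argininosuccinate synthase, was at 187 and 259 at D8 against 79.96 and 90.4 at D10 (-1.39 ± 0.18, adjusted p = 0.0026). Both were clear of the spread and held without any one library. The serine synthesis gene Psat1, named after its values were seen, was at 427 and 455 at D8 against 268 and 256 at D10 (-0.75 ± 0.15, adjusted p = 0.011, but adjusted p = 0.053 with D10 replicate 1 left out). For the list, the number that rose was 1 with D8 replicate 2 left out and the number that fell was 3 with D10 replicate 1 left out and 7 with D8 replicate 2 or D10 replicate 2 left out. Outside these pathways Tfeb, for the master factor of lysosome genes, fell from 31.2 and 40.8 CPM at D8 to 12.4 and 11.9 CPM at D10 (-1.57 ± 0.20, adjusted p = 0.0023), while 4 of 28 lysosome and autophagy genes fell in all and the number that rose was 1 with D8 replicate 1 left out and the number that fell was 1 with D10 replicate 1 left out, 2 with D3 replicate 1, D3 replicate 2, D8 replicate 2 or D10 replicate 2 left out and 8 with D8 replicate 1 left out. With all libraries 14.3% of the lysosome and autophagy list fell, against 7.65% of all genes. Sod2, the mitochondrial superoxide dismutase gene, fell by 0.89 ± 0.13 on the log2 scale.

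Among silencing factors a few genes rose. Of 21 DNA methylation genes 3 rose (14.3%) and 0 fell, against 9.27% and 7.65% of all genes. Besides Dnmt3a these were Uhrf2, which was lost in 7 of the 8 fits that leave out 1 library, and Zbtb33, for Kaiso, a reader of methylated DNA, at 8.24 and 8.01 CPM at D8 and 19.9 and 17.3 CPM at D10 (1.19 ± 0.17, adjusted p = 0.0038). Dnmt1, which copies methylation at replication, was at 438 and 509 at D8 against 429 and 427 at D10 (-0.15 ± 0.13). In this list 1 gene fell without D8 replicate 1 and 2 without D8 replicate 2, and offsets for GC and length gave 5 higher and 1 lower. Of 29 genes of H3K9 methylation and HP1 4 rose (13.8%) and 1 fell (3.45%). Atf7ip, the partner of the H3K9 methyltransferase SETDB1 (ENSMUSG00000030213, chromosome 6, 136506167 to 136610862), was at 63.0 and 67.6 CPM at D8 and 280.3 and 236 CPM at D10 (1.98 ± 0.17, adjusted p = 0.00082). Zfp809, for a zinc finger protein that silences retroviral DNA, was at 30.5 and 20.9 at D8 against 97.1 and 85.5 at D10 (1.83 ± 0.24, adjusted p = 0.0026). Both pairs were far apart. Trim28, for the co-repressor KAP1, did not pass, at 1644 and 2000.3 at D8 against 1548 and 1701 at D10 (-0.17 ± 0.14). For this list the number that rose was 10 with D8 replicate 1 left out and the number that fell was 0 with D3 replicate 1, D3 replicate 2, D8 replicate 2, D10 replicate 1 or D10 replicate 2 left out and 3 with D8 replicate 1 left out, and its median of 0.27 was -0.02 without D8 replicate 2 and 0.03 both without D10 replicate 1 and with offsets for GC and length. Of cell death genes, 4 of 28 rose (14.3%) and 1 fell (3.57%). Pmaip1, for the p53-induced protein NOXA, was at 48.9 and 48.7 CPM at D8 and 223 and 184 CPM at D10 (2.06 ± 0.21, adjusted p = 0.0011), Bcl2l11, for BIM, at 33.0 and 37.9 at D8 against 84.7 and 70.0 at D10 (1.13 ± 0.18) and Casp8, for caspase 8, at 6.25 and 5.599 at D8 against 13.7 and 12.2 at D10 (1.13 ± 0.19). No pair overlapped, and the number that fell was 0 with D3 replicate 1, D3 replicate 2 or D10 replicate 1 left out and 2 with D8 replicate 2 left out.

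Germline genes listed as held down by PRC1.6 and DNA methylation were examined with their promoters. PRC1.6 is known to bind through the E-box CACGTG and the E2F6 motif TTCCCGC. The list was not silent before the exposure, with a summed level of 1371 and 1251 CPM at D8. 8 of 36 tested members rose and 2 fell, against 9.27% and 7.65% of all genes, with a median of 0.38, which was 0.10 without D10 replicate 2, 0.65 without D8 replicate 2 and 0.66 without D10 replicate 1. RefSeq (GRCm38.p6) gave a promoter of 300 bases, 250 before the start and 50 after it, for 33 of the 36 and for 12237 tested genes in all. CACGTG, searched on both strands, lay in 15 of the 33 (45.5%), in 6 of the 8 that rose (75%) and in 9.92% of all 12237. TTCCCGC lay in 10 of the 33 (30.3%), in 2 of the 8 and in 8.37% of all. Over every gene called higher the shares were 8.37% and 3.68%. 10 motifs were searched and these 2 were shown after the matches were seen. A match describes letters and is not a binding site. The list was drawn up as genes of PRC1.6, so its share of these motifs against all genes is no test of them. CACGTG also holds a CG. Promoters of the 8 that rose had a median of 24 CG in 300 bases, against 20 in genes not called and 14 in all called higher. The 80 bases around the E-box in the 6 promoters follow, 5′ to 3′ on the gene's strand with CACGTG in capitals, to show where it lies. Its first base is at position -78 from the start in Brdt (chr5:107331079-107331158, plus strand), at -20 for the nearer of its 2 matches in Hormad1 (chr3:95559597-95559676, plus), at -223 in Mael (chr1:166238915-166238994, minus), at -120 in Stk31 (chr6:49395447-49395526, plus), at -94 in Sycp1 (chr3:102936152-102936231, minus) and at -49 in Taf7l (chrX:134476497-134476576, minus).
Brdt: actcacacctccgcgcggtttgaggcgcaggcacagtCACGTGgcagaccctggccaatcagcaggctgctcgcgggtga
Hormad1: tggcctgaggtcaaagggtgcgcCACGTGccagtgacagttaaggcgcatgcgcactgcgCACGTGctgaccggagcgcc
Mael: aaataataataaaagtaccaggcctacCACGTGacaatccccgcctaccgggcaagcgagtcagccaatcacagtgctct
Stk31: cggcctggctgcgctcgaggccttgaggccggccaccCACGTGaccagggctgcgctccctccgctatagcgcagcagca
Sycp1: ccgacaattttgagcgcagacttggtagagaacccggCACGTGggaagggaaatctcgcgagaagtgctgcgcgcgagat
Taf7l: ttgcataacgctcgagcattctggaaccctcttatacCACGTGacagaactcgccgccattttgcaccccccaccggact

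Of these genes, Sycp1, for a protein of the synaptonemal complex, was at 3.17 and 2.06 CPM at D8 and 10.8 and 8.86 CPM at D10 (1.91 ± 0.26, adjusted p = 0.0031). Mael, for a protein of the piRNA pathway, was at 7.72 and 13.0 at D8 against 25.98 and 42.7 at D10 (1.73 ± 0.31, adjusted p = 0.0081), and Brdt, for the testis bromodomain protein, at 2.85 and 2.77 at D8 against 7.86 and 10.3 at D10 (1.69 ± 0.27, adjusted p = 0.0053). D10 values lay above D8 values in each. Dazl, a germ cell RNA-binding protein gene, was at 27.3 and 19.8 at D8 against 70.4 and 76.3 at D10 (1.64 ± 0.24, adjusted p = 0.0038) and, like Hormad1, Taf7l, Meioc, Piwil2 and Hsf2bp, was named after its values were seen. Stk31 was at 29.0 and 11.6 at D8 against 93.2 and 46.7 at D10 (1.79 ± 0.44, adjusted p = 0.028, but adjusted p = 0.09 with D8 replicate 2 left out and 0.15 with D10 replicate 1 left out). Hormad1, at 13.3 and 7.63 at D8 against 21.3 and 21.5 at D10 (1.03 ± 0.26), Taf7l, at 4.81 and 6.66 at D8 against 9.40 and 14.6 at D10 (1.07 ± 0.29), and Meioc each missed the threshold with any of at least 3 libraries left out. The falls were Piwil2, at 46.7 and 54.7 at D8 against 24.2 and 32.8 at D10 (-0.83 ± 0.19), and Hsf2bp, at 58.5 and 74.3 at D8 against 36.3 and 39.7 at D10 (-0.80 ± 0.19). Trim71, for an RNA-binding ubiquitin ligase, did not pass, at 638 and 506 at D8 against 765 and 666 at D10 (0.32 ± 0.16). For the list, the number that rose was 4 with D8 replicate 2 left out and 5 with D10 replicate 1 or D10 replicate 2 left out and the number that fell was 0 with D10 replicate 1 left out, and offsets for GC and length gave 7 higher and 8 lower.

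Of 79 ribosomal protein genes 1 rose and 1 fell. The rise was Rpl39l, a testis-enriched copy of Rpl39, at 5.99 and 10.7 CPM at D8 and 40.1 and 74.6 CPM at D10 (2.79 ± 0.34, adjusted p = 0.002). Of 64 replication-dependent histone genes 17 fell (26.6%, against 7.65% of all genes) and 0 rose. Their median was -0.57 (-0.26 without D8 replicate 2, -0.86 without D8 replicate 1). Hist1h1t, for a testis linker histone, was at 10.5 and 14.5 at D8 against 2.72 and 4.49 at D10 (-1.78 ± 0.30) and Hist1h2af at 112 and 149 at D8 against 47.1 and 64.7 at D10 (-1.22 ± 0.20, adjusted p = 0.0057). Messages of this family lack polyA tails, and the labels differ on whether polyA or total RNA was used. The histone count shifted with the libraries, as the number that fell was 3 with D10 replicate 1 left out, 6 with D8 replicate 2 left out, 7 with D1 replicate 2, D3 replicate 1 or D3 replicate 2 left out and 50 with D8 replicate 1 left out. Falls among ribosomal proteins were 37 without D8 replicate 1 and 0 without any one of the other 7. Among 85 nuclear genes of oxidative phosphorylation 2 rose and 7 fell (8.24%, near the 7.65% of all genes), and the number that rose was 0 with D8 replicate 2 or D10 replicate 1 left out and 1 with D1 replicate 1, D1 replicate 2, D3 replicate 1, D3 replicate 2 or D10 replicate 2 left out and the number that fell was 0 with D10 replicate 1 left out, 1 with D1 replicate 2, D3 replicate 1, D3 replicate 2, D8 replicate 2 or D10 replicate 2 left out, 4 with D1 replicate 1 left out and 29 with D8 replicate 1 left out. Cdt1, which licenses replication origins, fell from 230.2 and 304 CPM at D8 to 149.9 and 141 CPM at D10 (-0.88 ± 0.15, adjusted p = 0.0075), and 5 of 25 licensing genes fell in all, where the number that fell was 1 with D10 replicate 1 left out, 2 with D1 replicate 1, D1 replicate 2, D3 replicate 1, D3 replicate 2, D8 replicate 2 or D10 replicate 2 left out and 9 with D8 replicate 1 left out.

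Called genes also lay in rows along the chromosomes. Runs of at least 4 neighbouring tested genes, all called in 1 direction, numbered 32 for rises, with 179 genes, and 15 for falls, with 62 genes. Close copies can share reads and neighbours can overlap, so run lengths are a description. The longest held 16 genes on chromosome 12 from 87980012 to 88324026 on mm10, with a median log2 fold change of 4.55 and predicted names throughout. Gm5039, 1 of its members, was at 3.70 and 4.44 CPM at D8 and 81.0 and 82.8 CPM at D10 (4.33 ± 0.50). A run of 13 on chromosome 7 from 10794242 to 11983912 is the Zscan4 cluster, with pseudogenes Zscan4-ps1 to Zscan4-ps3 rising beside the genes. Zscan4-ps3 was at 1.96 and 2.67 at D8 against 136 and 108 at D10 (5.71 ± 0.62). On chromosome 4 from 143394428 to 143966950 stood 9 genes, 8 of them coding, of the Pramel and Pramef family, in which Pramef8 was at 18.4 and 27.6 at D8 against 51.8 and 67.8 at D10 (1.38 ± 0.21, adjusted p = 0.0047). 5 aldo-keto reductase genes on chromosome 13 from 4132615 to 4609174 rose over a wide range, from 0.81 for Akr1e1, at 20.6 and 21.04 at D8 against 34.9 and 37.9 at D10, through 4.16 for Akr1c13, at 0.229 and 0.869 at D8 against 8.35 and 11.4 at D10, to 6.88 for Akr1c21. Akr1e1 and Akr1c13 were named after their values were seen.

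Runs of falls held at most 5 genes. A run on chromosome 8 from 71610998 to 71701789 ran over Colgalt1, Unc13a, Jak3, Insl3 and B3gnt3. Jak3, for a cytokine receptor kinase, was at 48.2 and 52.7 CPM at D8 and 16.6 and 18.3 CPM at D10 (-1.53 ± 0.20, adjusted p = 0.0026), while Insl3 was at 0.752 and 0.515 at D8 against 0.203 and 0.119 at D10 (-2.01 ± 0.52) and Colgalt1 at 172 and 209 at D8 against 123 and 134 at D10 (-0.56 ± 0.14). Of the 5, Jak3 alone passed without any one library. On chromosome 1 from 118627945 to 119504794 Tfcp2l1 and Inhbb stood with Gli2 and Ralb. Gli2, for a hedgehog factor and named after its values were seen, was at 34.6 and 28.4 at D8 against 11.8 and 8.70 at D10 (-1.63 ± 0.20, adjusted p = 0.002). A row of 4 histone genes on chromosome 13 ran from 23533906 to 23545312, with a median of -0.98.

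**Figure D5:**
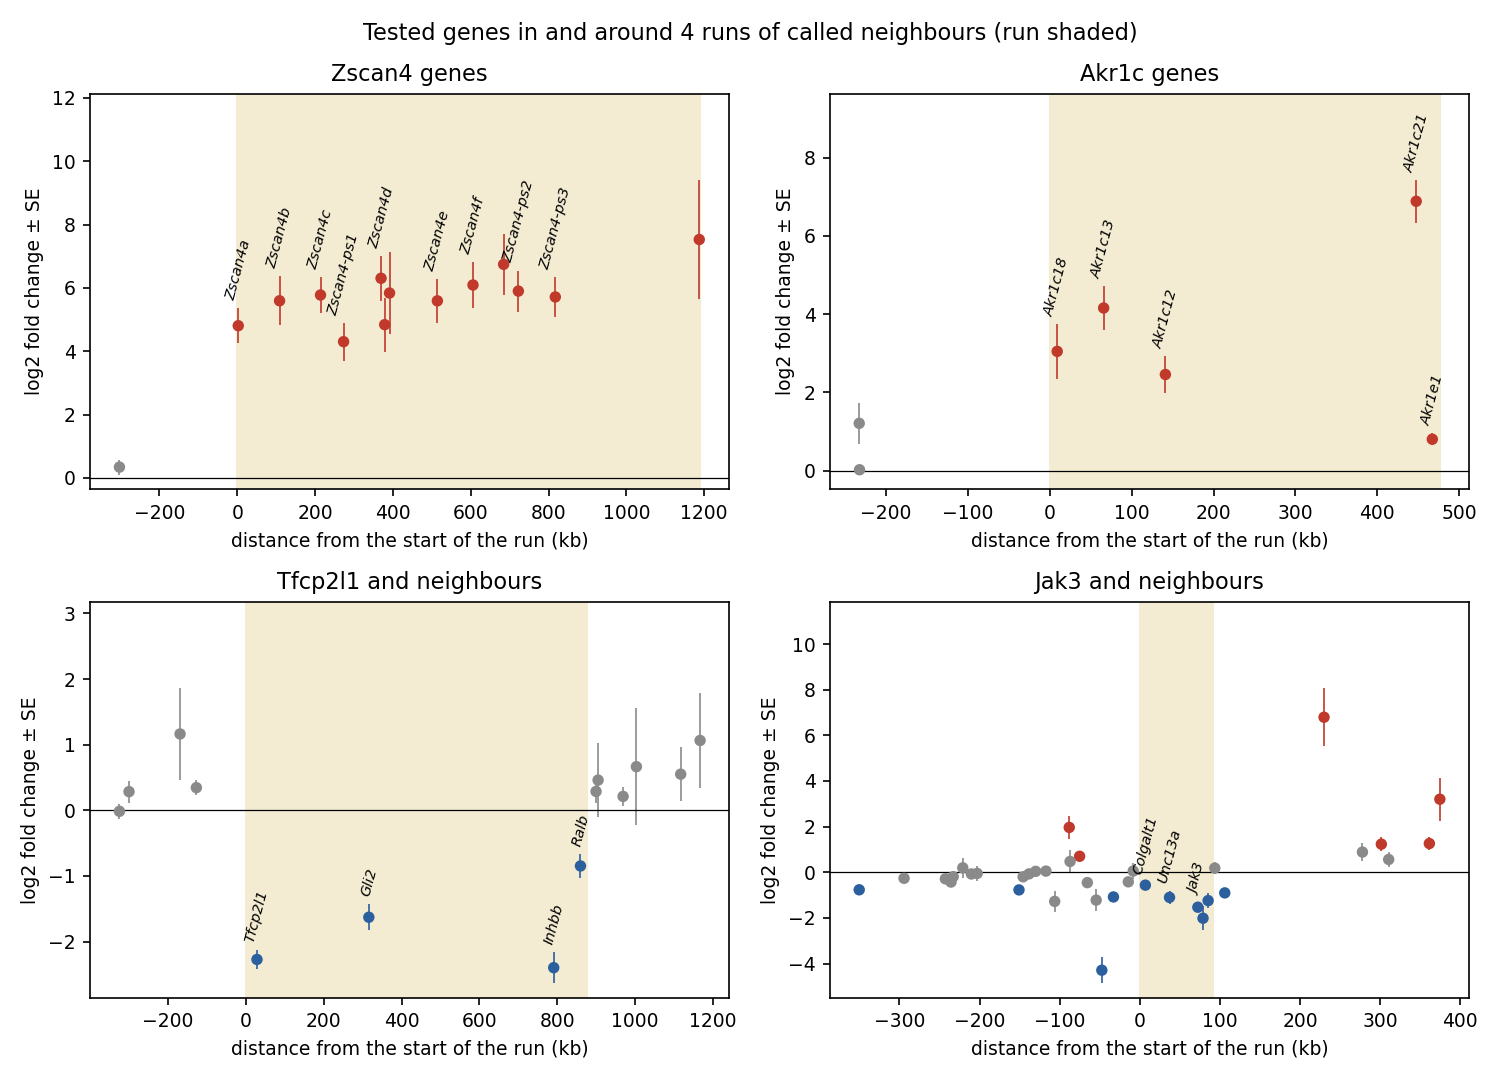
Log2 fold change with its SE of tested genes in and around 4 runs of called neighbours, by distance from the start of the run in kb (run shaded). Red points were called higher, blue lower and grey neither: the Zscan4 and Akr1c runs lie above zero and the runs with Tfcp2l1 and Jak3 below it, while grey points stand beside each, and fitted values of genes with 0 reads at D8 depend on the prior count.

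The response to the second exposure was tested against the response to the first, D3 minus D1, which shares no library with it. By edgeR 0 genes were called for the difference, and 575 of 19173 (3.0%) had an unadjusted p under 0.05. DESeq2 called 3 genes and edgeR without the filter on low counts called 66. With 2 libraries a group this does not show that the responses were alike. Values of the genes with small unadjusted p-values, chosen after they were seen, are given side by side. Tfcp2l1 changed by -2.27 ± 0.14 at the second and -1.26 ± 0.13 at the first exposure, a difference of -1.01 ± 0.19 (unadjusted p = 0.0005, adjusted p = 0.999865). It had stood at 497 and 494 CPM at D1 and 189.9 and 223 CPM at D3. Tdh changed by -2.05 ± 0.21 and -0.85 ± 0.20 (unadjusted p = 0.0023), and Rarg by 1.49 ± 0.13 and 0.88 ± 0.12 (unadjusted p = 0.0069). In these 3 genes the change was larger at the second exposure. Serpina3m, for a protease inhibitor, went the opposite way, with 3.52 ± 0.41 and 7.92 ± 0.57 (unadjusted p = 0.00026). Its D8 level was 0.654 and 1.67 CPM, against 0.0478 and 0.124 CPM at D1, and 12.6 and 14.3 CPM was reached at D10 against 19.4 and 27.8 CPM at D3. This gene started from a higher level and ended at a lower one in the second exposure, and it belongs to a family of near-identical copies.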

How the data were processed

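RNA from 8 samples of R1 cells, 2 each at D1, D3, D8 and D10, was sequenced. The authors deposited raw read counts per gene, made with STAR 2.5.0a and featureCounts against mm10, per the submitters' processing notes, with strand and multimapping settings not given in the sources used here. Identifiers were matched to GENCODE M21 (36901 of 36920 had a symbol, and 1438 had no read). Counts of all 8 libraries were scaled by TMM, filtered by filterByExpr to 19173 genes and fitted in edgeR 4.0.16 (R 4.3.3) by the quasi-likelihood test with 4 residual degrees of freedom. The common biological coefficient of variation was 19.6%. P-values were adjusted by Benjamini and Hochberg over all genes tested, with a threshold of 0.05. A log2 fold change comes from the edgeR fit with its default prior count, and its SE was taken from the F statistic. The prior count of 2 was used only in log2 CPM. Intervals and the floor of 3 reads cover counting error only. The scripts were tested on simulated data. Gene lists and comparisons were chosen with earlier results of these data known. The named genes are the 14 largest changes in each direction among called coding genes with a mean of at least 2 CPM. Limits on names, name stems and overlap applied to these, as given above. Added to them are the largest gains and losses in CPM, and up to 4 called members and 1 not called of each list. Also named were run members, silent genes and those said to be named after their values were seen. Alternatives were other size factors, other filters, DESeq2 1.42.0, offsets for GC and length (loess span 0.4), a replicate block, only the D8 and D10 libraries, and leaving out each library. Values of a few named genes are not reported here.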

Additional observations from a re-analysis of the deposited data

How the results depend on the processing

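Libraries and the design moved the counts more than the software did. The 3244 calls stood beside 1512 in a separate fit of only the D8 and D10 libraries and 1420 to 4304 in the fits with 1 library left out, each over its own set of tested genes. The 1777 rises numbered 918 with only those 4 libraries, 2666 without the filter on low counts and 991 to 2266 without 1 library. The 1467 falls numbered 594 with only those 4 libraries and 404 to 2038 without 1 library. A replicate block gave 5298 calls (2806 higher and 2492 lower), and with offsets for GC and length as well 5547 (2841 and 2706). Libraries of a like number share only that number in the labels: their deviations correlated at 0.498 between D8 and D10 and at 0.101 to 0.301 between the other pairs of groups, and the block ended no call of a named gene. Of the 17 SUMO conjugation genes, none of which was called, 2 were lower under the block and 1 with the offsets as well. For the difference between exposures the count of 0 became 66 without the filter and 3 by DESeq2, and it has no value with only the D8 and D10 libraries. Of 330 called named genes, 168 passed without each of the 8 libraries, while 133 missed the threshold without D10 replicate 1, 118 without D8 replicate 2, 107 with only the D8 and D10 libraries, 96 without D10 replicate 2, 33 with offsets for GC and length, 11 by DESeq2 and 3 with other size factors. No named gene changed sign past the threshold under these alternatives. The cause of these shifts was not tested. With 2 libraries a group and 4 residual degrees of freedom, a gene that missed the threshold is not shown to be unchanged.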

Other observations

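Several gene families outside the pathways above held called members. Of 31 nuclear receptor genes 7 rose (22.6%) and 4 fell, against 9.27% and 7.65% of all genes. Rxrg, for a retinoid X receptor, was at 0.785 and 0.772 CPM at D8 and 6.61 and 7.49 CPM at D10 (3.17 ± 0.28, edgeR adjusted p = 0.00082), and Nr3c2, for the mineralocorticoid receptor, at 2.09 and 1.87 at D8 against 8.63 and 7.30 at D10 (2.00 ± 0.31, adjusted p = 0.0047). Neither pair overlapped. For this family the number that rose was 4 with D10 replicate 2 left out and the number that fell was 2 with D10 replicate 1 or D10 replicate 2 left out. Of 65 voltage-gated channel genes 9 rose (13.8%) and 5 fell (7.69%, near the 7.65% of all genes). Cacna1s, for a calcium channel of skeletal muscle, was at 0.883 and 2.19 CPM at D8 and 7.17 and 12.8 CPM at D10 (2.71 ± 0.51, adjusted p = 0.0099). Kcnh5, for a potassium channel of neurons, had 0 reads at D8 and 0.689 and 0.879 CPM at D10, at least 16.6-fold higher against a floor of 3 reads over the group. Both passed without any one library, although the number that rose was 4 with D10 replicate 2 left out and 5 with D10 replicate 1 left out and the number that fell was 1 with D10 replicate 1 left out and 3 with D1 replicate 2, D3 replicate 1, D3 replicate 2 or D8 replicate 2 left out.

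Of 39 Hox genes 19 were tested, of which 4 rose (21.1%) and 0 fell. The 19 summed to only 13.9 and 11.9 CPM at D8, and genes at low levels could hardly be called lower. Of all tested genes between 0.1 and 1 CPM at D8, 11.9% rose and 1.41% fell. Hoxa5, for a factor of the trunk, was at 0.262 and 0.193 CPM at D8 and 1.42 and 1.45 CPM at D10 (2.64 ± 0.43, adjusted p = 0.0056), and for the family the number that rose was 1 with D1 replicate 1, D8 replicate 2, D10 replicate 1 or D10 replicate 2 left out and 2 with D1 replicate 2, D3 replicate 1 or D3 replicate 2 left out. Among solute carriers 29 of 268 rose (10.8%) and 31 fell (11.6%), against 9.27% and 7.65% of all genes. Slc44a5, of the choline transporter family, went from 2 reads at D8 to 93 at D10, a ratio of 42.9 (95% exact interval of 11.6 to 360). For the carriers the number that rose was 12 with D10 replicate 1 left out, 13 with D10 replicate 2 left out and 15 with D8 replicate 2 left out and the number that fell was 10 with D10 replicate 1 left out. Of 369 genes named Zfp 34 rose (9.21%, near the share of all genes) and 10 fell (2.71%), and the number that rose was 14 with D8 replicate 2 left out, 15 with D10 replicate 1 left out and 116 with D8 replicate 1 left out and the number that fell was 4 with D10 replicate 1 left out and 6 with D1 replicate 2 or D10 replicate 2 left out. Zfp352, known from the 2-cell embryo, was at 0.164 and 0.386 CPM at D8 and 3.40 and 5.80 CPM at D10 (4.05 ± 0.58, adjusted p = 0.0035), with both D10 values far above both D8 values.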
